A study of Drosophila melanogaster with 12 samples.

Results

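The genes described here are 8 components of the Drosophila Wnt (Wingless) pathway, taken as the rows of fz, fz2, arr, dsh, Axn, sgg, arm and pan in a gene table of 17469 genes. They were chosen by name, with earlier results of these data known, and all 8 passed the filter on low values. Reads were small RNAs of 20 to 40 nt that came down with the Piwi protein from ovarian somatic cells (OSC), a cultured line from the fly ovary. A value is therefore the amount of Piwi-bound small RNA assigned to a gene, not the amount of its messenger RNA.

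The 12 libraries formed 4 groups of 3. In the first experiment siRNA depleted Daed, and a plasmid supplied Flag-tagged Daed without its SAM domain (deltaSAM) or wild-type Flag-tagged Daed (WT). In the second experiment siRNA depleted Armi, and a plasmid supplied the Flag-tagged KEE mutant of Armi or wild-type Armi with the same tag (WT). The labels give no expansion of KEE. All groups thus carried a knockdown and a protein made from a plasmid. Plasmid and siRNA were given after 48 h of RNAi, and cells were taken another 48 h later. No library without a knockdown was among the 12.

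PIWI-interacting RNAs (piRNAs) guide Piwi to transposons and other transcripts. In ovarian somatic cells they are cut from long transposon-rich precursors and from the messenger RNAs of many genes, often from the part after the coding region. The cuts are made by the nuclease Zucchini on the outer face of mitochondria, where the helicase Armi and the membrane protein Daed take part. Wnt signalling starts when a Wnt ligand binds a Frizzled receptor and the co-receptor Arrow. Dishevelled then relays the signal, the complex that destroys Armadillo (beta-catenin) is held back, and Armadillo acts in the nucleus with the DNA-binding protein Pangolin. In the fly ovary Wingless signalling is known for its role in follicle stem cells, and Armadillo is also a part of the junctions between epithelial cells.

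The libraries held between 1396369 and 3995009 reads, the fewest in the Daed experiment. Reads assigned to genes were 58.0 ± 0.598% of the library with deltaSAM and 50.2 ± 0.813% with WT of the Daed knockdown, and 79.5 ± 0.251% with KEE and 63.4 ± 1.32% with WT of the Armi knockdown (SD, n = 3). Replicate 3 of deltaSAM and replicate 3 of the Armi knockdown WT stood apart from their group mates. Their chi-square per degree of freedom against the other replicates was 4.94 to 5.93, while the other replicate pairs had 1.22 to 2.18. Reads of armi were 1553 ± 26.8 RPM with KEE and 878 ± 30.3 RPM with WT, and those of daed 30.3 ± 1.79 RPM with deltaSAM and 30.4 ± 2.46 RPM with WT. In the other experiment armi had 184 ± 20.4 RPM with deltaSAM and 289 ± 21.5 RPM with its WT. There daed had 5.67 ± 1.29 RPM with KEE and 3.45 ± 1.11 RPM with its WT. Each gene thus had more reads where its plasmid was given, but reads from a plasmid could not be told from endogenous reads. The 7 ovarian somatic markers summed to between 8417 and 19429 RPM, against 35.8 to 72.8 RPM for the 8 germline markers, 16.7 to 31.9 RPM for 5 blood cell markers (He was at 0) and 44.4 to 107 RPM for 4 muscle markers. Of 4 neuron markers elav alone had a mean of at least 1 RPM, between 353 and 1143 RPM. Most of the ovarian somatic sum came from tj, with a mean of 11400 RPM (7401 to 18054 RPM). The mean of zfh1 was 1193 RPM. Those of ptc, hh, br, eya and Fas3 were 328, 296, 195, 53.9 and 29.3 RPM, below the 636 RPM of elav. The muscle marker Mef2 had 60.0 RPM and the germline marker krimp 29.9 RPM. The ovarian somatic sum thus mainly shows the piRNAs of tj. Marker sums moved with the groups. The ovarian somatic sum averaged 17620 RPM with deltaSAM and 8783 RPM with its WT, and 13531 RPM with KEE and 14042 RPM with its WT. The neuron sum averaged 604 RPM with deltaSAM and 370 RPM with its WT, and 1101 RPM with KEE and 475 RPM with its WT. The part of these shifts in the results below was not tested.

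Values are RPM, the deposited read count normalised by the size of its library. Differences were tested on log2(RPM + 1) with limma over the 8246 genes that had at least 1 RPM in at least 3 libraries, and a gene was called at a Benjamini-Hochberg adjusted p under 0.05. The 8 genes had between 20 and 2007 reads in a library. The median coefficient of variation between replicates was 9.10%, against 8.87% for counting error alone, and 13 of 32 gene and group combinations lay below their counting error. Nothing states that replicates came from separate cultures, so a p measures the spread between these samples.

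With deltaSAM 4 of the 8 genes rose (fz, fz2, dsh, pan), 3 fell (arr, sgg, arm) and Axn was not called. Of all genes tested 36.2% were called in this comparison, 17.3% up and 18.9% down. Among the 3842 genes with a mean of at least 10 RPM, where all 8 lie, the called part was 55.9%, with 32.4% up and 23.5% down. With KEE 6 rose (fz, fz2, dsh, Axn, sgg, arm), arr fell and pan was not called. The background of that comparison was 44.7%, with 33% up and 11.7% down, or 72.3%, 53.6% and 18.7% at a mean of at least 10 RPM. The median log2 change of the 8 was 0.39 with deltaSAM and 0.85 with KEE, beside -0.10 and 0.30 over all genes tested and 0.083 and 0.47 over those with a mean of at least 10 RPM. Each library was made from many cells, so fewer cells with such reads and fewer reads per cell cannot be told apart, nor can a change in the transcript and a change in its processing.

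**Figure D1:**
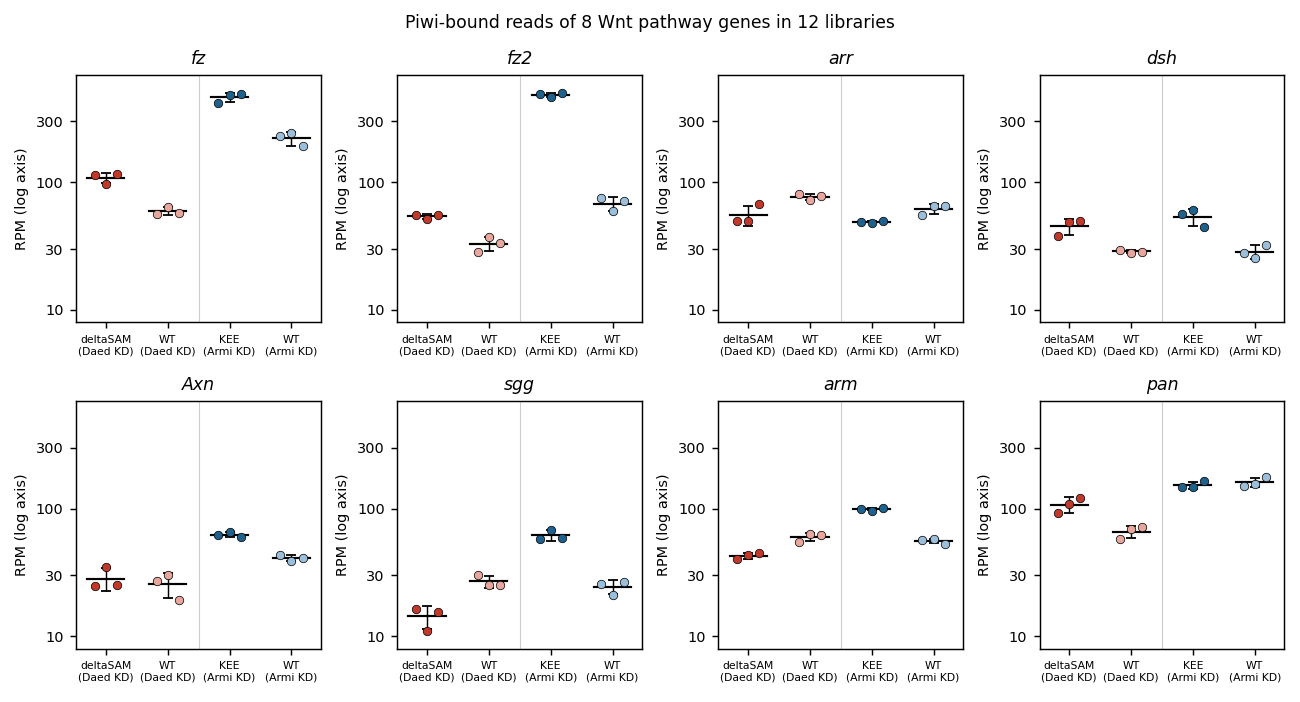
Piwi-bound reads of the 8 genes in every library, in RPM on a log axis. Points are libraries, the horizontal line is the mean and the bar the SD of 3 libraries. The KEE libraries of fz2 stand at 468 to 502 RPM, above the 59.1 to 74.7 RPM of their WT libraries.

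Frizzled (fz, FBgn0001085, dm6 3L:14274343-14368639) encodes a membrane receptor that serves both Wnt signalling and planar cell polarity. It had 113, 96.4 and 116 RPM in the deltaSAM libraries, against 56.6, 64.6 and 57.3 RPM in the WT libraries of the Daed knockdown. The KEE libraries had 418, 481 and 494 RPM, against 229, 245 and 191 RPM in the WT libraries of the Armi knockdown. All libraries of either variant lay above all of their WT libraries. The log2 change was 0.86 ± 0.11 (SE) with deltaSAM, adjusted p = 2.44e-07 (limma), and 1.07 ± 0.11 with KEE, adjusted p = 1.20e-09 (limma). Over the 4 groups fz was lowest with WT of the Daed knockdown, then deltaSAM, then WT of the Armi knockdown, and highest with KEE, with no overlap between neighbours.

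Frizzled 2 (fz2, FBgn0016797, dm6 3L:19140975-19235373) encodes the second Wingless receptor, which acts redundantly with Frizzled in the embryo. With deltaSAM it had 55.8, 51.2 and 55.2 RPM, against 28.5, 37.0 and 33.7 RPM with WT. With KEE it had 491, 468 and 502 RPM, against 74.7, 59.1 and 70.8 RPM with WT. The KEE libraries stood far above all others, and the order of the 4 groups was that of fz, again without overlap. The rise with deltaSAM was 0.70 ± 0.11 on the log2 scale (adjusted p = 1.73e-05, limma). That with KEE was 2.82 ± 0.11 (7.09-fold on the log2(RPM + 1) scale, adjusted p = 7.83e-18, limma). It was the 8th largest rise among the 8246 genes.

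Arrow (arr, FBgn0000119, dm6 2R:13453640-13483229) encodes the co-receptor of the LRP5 and LRP6 family. It ran against the receptors, with 49.4, 49.6 and 67.4 RPM in deltaSAM libraries, against 80.5, 72.3 and 78.8 RPM in WT libraries. The fall was -0.48 ± 0.13 on the log2 scale (adjusted p = 0.00355, limma) and -0.63 (adjusted p = 9.10e-05, limma) without replicate 3 of deltaSAM and of the Armi knockdown WT. Centred on the median gene it was -0.27 and not called (adjusted p = 0.101, limma). Replicate 3 of deltaSAM was the highest of its group, and the groups did not overlap. KEE libraries had 49.1, 48.4 and 49.3 RPM, against 55.6, 64.7 and 65.5 RPM in WT libraries, a change of -0.33 ± 0.13 with an adjusted p of 0.0358 (limma). That call was lost without KEE replicate 1, 2 or 3 (adjusted p = 0.0779, 0.0878 and 0.0749, limma) and without WT replicate 2 or 3 (0.109 and 0.111). The same call was lost with no filter on low values and without both libraries that stood apart (adjusted p = 0.0564 and 0.0506, limma). In the 4 scalings other than library RPM, it was called with changes between -0.76 and -0.65. Among the 8 genes arr alone was called down in both experiments with library RPM.

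Dishevelled (dsh, FBgn0000499, dm6 X:11355881-11358724) encodes the cytoplasmic protein that passes the signal from the receptors. It had 37.6, 48.5 and 49.7 RPM with deltaSAM, against 29.6, 28.1 and 28.6 RPM with WT. It had 56.3, 60.3 and 44.3 RPM with KEE, against 27.7, 25.7 and 32.4 RPM with WT. Each variant lay above its WT libraries, while the deltaSAM and KEE libraries overlapped each other, as did both sets of WT libraries. The log2 change was 0.62 ± 0.15 with deltaSAM (adjusted p = 0.00149, limma) and 0.88 ± 0.15 with KEE (adjusted p = 1.31e-05, limma).

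Axin (Axn, FBgn0026597, dm6 3R:30022842-30035311) encodes the scaffold of the complex that marks Armadillo for destruction. With deltaSAM it had 24.7, 34.8 and 25.4 RPM, against 27.0, 30.4 and 19.3 RPM with WT. These groups overlapped, and the log2 difference of 0.15 had a 95% interval from -0.18 to 0.47 (adjusted p = 0.502, limma). With KEE it had 61.6, 65.5 and 60.1 RPM, against 43.1, 38.5 and 41.1 RPM with WT. The rise of 0.60 ± 0.16 (adjusted p = 0.00267, limma) was not called under any of 4 other scalings, where the difference was 0.18 to 0.28 (adjusted p = 0.0864 to 0.393).

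Shaggy (sgg, FBgn0003371, dm6 X:2633952-2679553) encodes the GSK3 kinase that phosphorylates Armadillo in the same complex. It moved in opposite directions in the 2 experiments. The deltaSAM libraries had 16.5, 10.9 and 15.5 RPM, against 30.1, 25.4 and 25.1 RPM in WT libraries, a log2 change of -0.88 ± 0.17 (adjusted p = 0.000108, limma). The KEE libraries had 57.9, 68.4 and 59.1 RPM, against 25.9, 21.0 and 26.4 RPM in WT libraries, a log2 change of 1.31 ± 0.17 (adjusted p = 1.09e-07, limma). Both sets of WT libraries overlapped, with deltaSAM below and KEE above them. The deltaSAM values rest on 28, 20 and 28 reads, the fewest of any member.

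Armadillo (arm, FBgn0000117, dm6 X:1891401-1900646) encodes beta-catenin, the effector of the pathway. It had 40.0, 43.0 and 44.7 RPM with deltaSAM, against 55.1, 62.9 and 61.6 RPM with WT. It had 99.8, 96.6 and 102 RPM with KEE, against 56.7, 57.4 and 53.1 RPM with WT. Like sgg it was low with deltaSAM, high with KEE and overlapping between both WT groups. The log2 change was -0.48 ± 0.11 with deltaSAM (adjusted p = 0.00135, limma) and 0.82 ± 0.11 with KEE (adjusted p = 4.92e-07, limma).

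Pangolin (pan, FBgn0085432, dm6 4:69326-114270) encodes the TCF protein that binds DNA together with Armadillo. With deltaSAM it had 91.7, 108 and 122 RPM, against 57.6, 69.0 and 71.6 RPM with WT, a log2 change of 0.69 ± 0.11 (adjusted p = 2.00e-05, limma). With KEE it had 148, 148 and 163 RPM, against 151, 155 and 176 RPM with WT. The groups of the Armi knockdown overlapped, and the log2 difference was -0.07 with a 95% interval from -0.30 to 0.16 (adjusted p = 0.649, limma). With 4 other scalings pan was called down with KEE, by -0.49 to -0.40 on the log2 scale (adjusted p = 7.70e-05 to 0.00899).

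**Figure D2:**
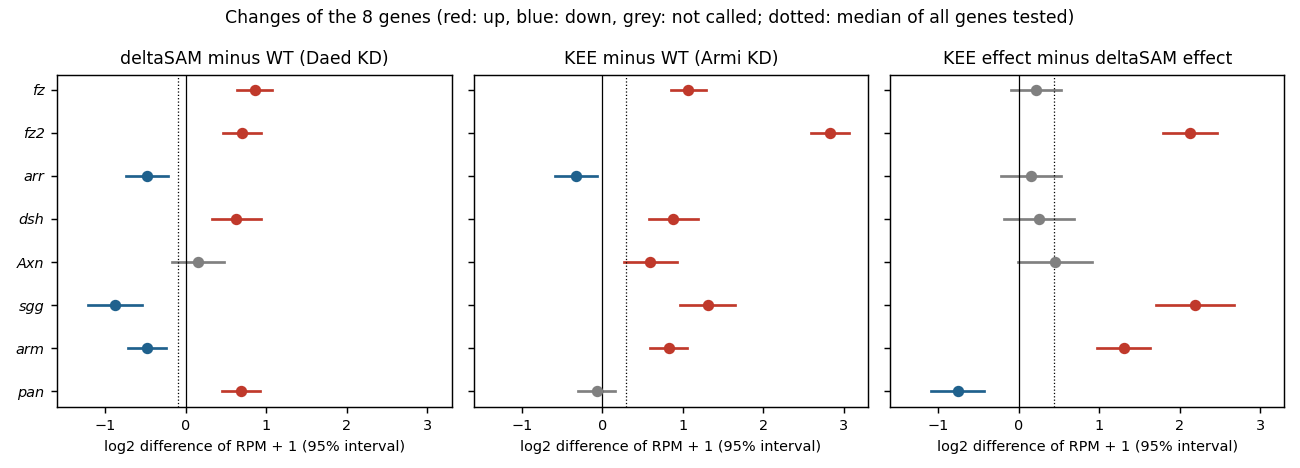
Log2 differences of RPM + 1 with 95% intervals for the 8 genes, with deltaSAM minus WT, KEE minus WT and the difference between these effects. The dotted line is the median of all 8246 genes tested, at -0.10, 0.30 and 0.44. The interval of fz2 with KEE lies from 2.59 to 3.06.

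The effects of the 2 variants differed for 4 of the 8 genes, while 40.4% of all genes tested differed, 29.4% upward and 11% downward, or 66.5%, 45.3% and 21.1% at a mean of at least 10 RPM. The KEE effect exceeded the deltaSAM effect by 2.19 ± 0.23 (SE, log2) for sgg, 2.12 ± 0.16 for fz2 and 1.30 ± 0.16 for arm, and lay below it by -0.76 ± 0.16 for pan. The adjusted p was 8.91e-09, 1.36e-11, 1.20e-07 and 0.000333 (limma). These 4 calls also held with gene-table totals, median centring, edgeR and DESeq2. The remaining differences were 0.21 for fz (95% interval -0.10 to 0.52), 0.15 for arr (-0.21 to 0.52), 0.25 for dsh (-0.18 to 0.69) and 0.45 for Axn (-0.01 to 0.91). The sign of all 4 turned with the scaling, Axn to -0.12 with median centring and -0.026 with DESeq2. With library RPM the Axn difference was called without deltaSAM replicate 2 (0.60, adjusted p = 0.0335, limma) or without Daed knockdown WT replicate 3 (0.63, adjusted p = 0.0186).

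The choice of scaling moved the median change of all genes. Scaled to the gene-table total, the median log2 change of all genes was -0.30 with deltaSAM and 0.00 with KEE, in place of -0.10 and 0.30 with library RPM. The filter was applied again after this scaling and passed 9249 genes in place of 8246, so these medians are over unlike sets. Centred on the median gene the median change was 0.11 with deltaSAM and -0.053 with KEE. Of all genes called with deltaSAM, 47.8% were up with library RPM, 28.9% with the gene-table total, 68.8% with median centring, 58.9% with edgeR and 60.9% with DESeq2. Of all genes called with KEE, 73.8% were up with library RPM, 55% with the gene-table total, 49.7% with median centring, 53.4% with edgeR and 47.8% with DESeq2. The rises of fz, fz2 and dsh in both experiments, of pan with deltaSAM and of sgg and arm with KEE were called in all 5 scalings, as was the fall of sgg with deltaSAM. With deltaSAM, 4 rose and 3 fell under each scaling except centring on the median gene. There 4 rose and 1 fell, and arr and arm were not called (-0.27 each, adjusted p = 0.101 and 0.0729, limma). Beside these, all genes gave 962 up and 2365 down of 9249 at the gene-table total with deltaSAM. Of 8246 genes, 2034 were up and 923 down with centring, 1509 and 1051 with edgeR, and 1324 and 850 with DESeq2. With KEE, 5 rose and 2 fell under all 4 other scalings, since Axn left the rises and pan joined the falls. Beside these, all genes gave 1694 up and 1386 down of 9249 at the gene-table total. Of 8246 genes, 1667 were up and 1685 down with centring, 2075 and 1812 with edgeR, and 1532 and 1673 with DESeq2. Against the median of all genes tested, the KEE change was 2.53 for fz2, 1.01 for sgg, 0.77 for fz, 0.58 for dsh, 0.52 for arm, 0.30 for Axn, -0.37 for pan and -0.63 for arr.

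**Figure D3:**
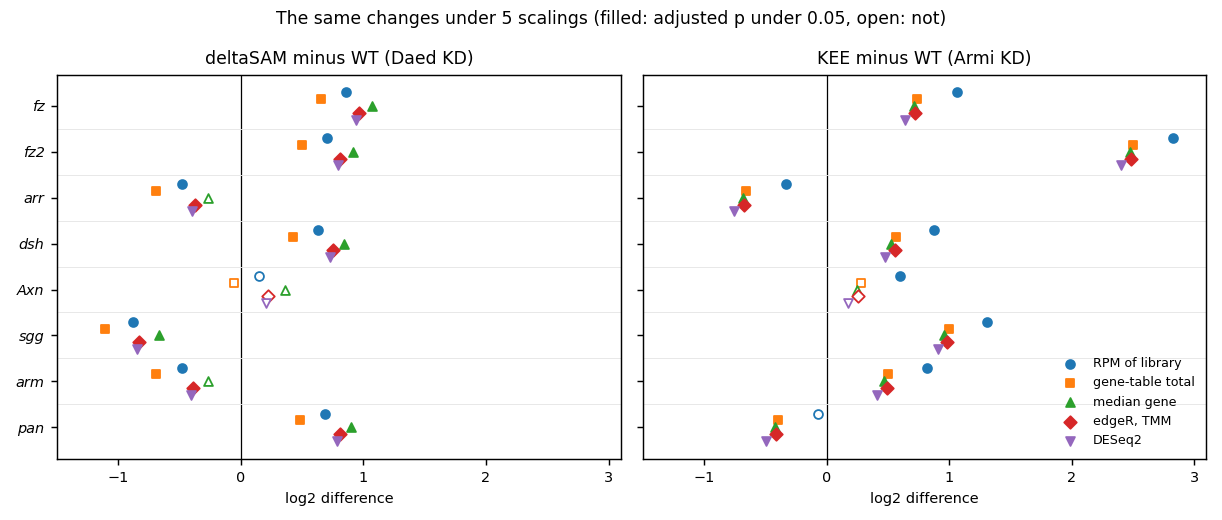
Log2 differences of the 8 genes with deltaSAM (left) and KEE (right) under 5 scalings, where filled symbols have an adjusted p under 0.05. With KEE pan is open only for library RPM, and Axn is filled only there.

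Summed, the 8 genes were 0.0786 ± 0.00693% of gene reads with deltaSAM and 0.0751 ± 0.00282% with WT of the Daed knockdown (SD, n = 3), and these libraries overlapped. They were 0.180 ± 0.00532% with KEE and 0.105 ± 0.00144% with WT of the Armi knockdown, without overlap. In library RPM the sum was 456 ± 35.4 with deltaSAM and 377 ± 12.3 with its WT, here without overlap. It was 1430 ± 46.7 RPM with KEE and 662 ± 4.99 RPM with its WT, again without overlap. Whether the sum changed with deltaSAM thus depends on the scale. The make-up of that sum does not depend on the scaling. The receptor gene fz2 made up 34.1 ± 1.45% of it with KEE and 10.3 ± 1.27% with WT. The part of fz was 32.4 ± 1.86% with KEE and 33.5 ± 3.91% with WT, and these libraries overlapped. The part of pan was 10.7 ± 0.403% with KEE and 24.3 ± 2.21% with WT. A share also falls when other members rise, and pan itself had 153 ± 9.12 RPM with KEE and 161 ± 13.5 RPM with WT. In the Daed knockdown fz made up 23.9 ± 2.36% with deltaSAM and 15.8 ± 0.706% with WT, and arm 9.35 ± 0.356% with deltaSAM and 15.9 ± 0.691% with WT. For arr it was 12.1 ± 1.30% with deltaSAM and 20.5 ± 1.79% with WT.

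**Figure D4:**
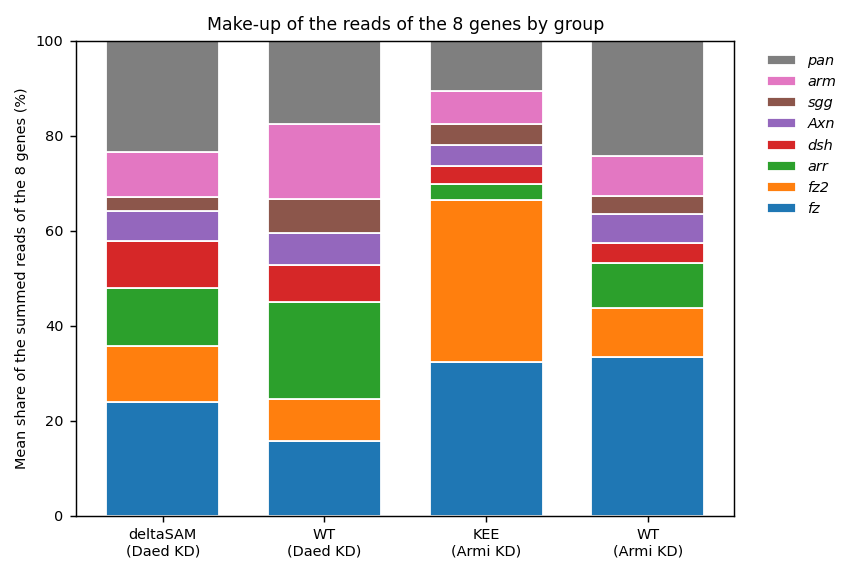
Mean share of each gene in the summed reads of the 8 genes, in percent, with 1 bar per group of 3 libraries. The part of fz2 is 34.1% with KEE and 10.3% with WT of the Armi knockdown.

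Ratios of reads between 2 genes of a library are also free of the scaling. The pairs were chosen with the values in view and carry no test. There were 1.17, 0.974 and 1.02 reads of fz2 per read of fz with KEE, against 0.326, 0.241 and 0.370 with WT. The deltaSAM libraries had 0.492, 0.531 and 0.476, against 0.505, 0.573 and 0.588 with WT, so the receptor pair moved in parallel there and apart with KEE. For each read of pan there were 0.436, 0.399 and 0.367 reads of arm with deltaSAM, against 0.956, 0.912 and 0.860 with WT. The KEE libraries had 0.676, 0.654 and 0.622, against 0.375, 0.369 and 0.301 with WT. The ratio of arm, the effector, to pan, its partner on DNA, was thus lower with deltaSAM and higher with KEE, each without overlap.

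The WT rescues of the 2 experiments differed as well. In WT of the Armi knockdown fz was higher than in WT of the Daed knockdown by 1.88 ± 0.11 on the log2 scale (adjusted p = 5.61e-14, limma). This was the 32nd largest rise among the 8246 genes. For pan the difference was 1.27 ± 0.11, for fz2 1.02 ± 0.11 and for Axn 0.68 ± 0.16 (adjusted p = 3.88e-10, 3.02e-08 and 0.00143, limma). These 4 rises and 0 falls among 8 genes compare with 25.3% of all genes called, 18.9% up and 6.35% down, or 46.5%, 37.5% and 9.01% at a mean of at least 10 RPM. The remaining 4 genes were not called, with differences of -0.32 for arr, -0.13 for sgg, -0.10 for arm and -0.02 for dsh. Scaled to the gene-table total, Axn was lost (0.36, adjusted p = 0.0999, limma), while arr (-0.65), sgg (-0.47) and arm (-0.43) were called down. At that scaling 858 of all 9249 genes were up and 1504 down. The fall of arr was also called with edgeR (-0.43, adjusted p = 0.00802) and with DESeq2 (-0.44, adjusted p = 0.00924), but not with median centring (-0.25, adjusted p = 0.161, limma). It was called with only the libraries compared, with the 10 RPM filter and without both libraries that stood apart (adjusted p = 0.0489, 0.0437 and 0.0237, limma). Leaving out deltaSAM replicate 3, which is outside this comparison, left the change at -0.32 and moved only its adjusted p (0.0293, limma). These WT libraries also serve as controls above, and the depleted gene, the rescue plasmid and the experiment cannot be told apart.

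Genes with the nearest pattern were taken by the root mean square difference of log2(RPM + 1), each gene centred on its own mean over the 12 libraries. The libraries share group, depth and scaling, so likeness is a description. Nearest to fz were pum (0.14) and beat-IIIc (0.15), where the median over all tested genes was 1.07. The pum gene had means of 252 RPM with deltaSAM, 147 RPM with WT of the Daed knockdown, 1207 RPM with KEE and 498 RPM with WT of the Armi knockdown. Nearest to fz2 were Pdp1 (0.21) and Liprin-alpha (0.24), against a median of 1.38. Pdp1 had 407 RPM with KEE and 67.0 RPM with its WT.

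For the other members the distances to the nearest genes lay between 0.11 and 0.18. Gnf1 and Tcs4 came nearest to arr, Acf and sima to dsh, rho-4 and CG11883 to Axn, Dora and LanA to sgg, eIF3b and RpL6 to arm, and Zir and aurA to pan. The aurA gene held no more than 1.49 RPM on average in any group. LanA, the laminin A gene, had 147 RPM with deltaSAM and 261 RPM with its WT, and 511 RPM with KEE and 260.0 RPM with its WT.

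A wider list held 42 other Wnt pathway genes, of which 37 passed the filter. Those left out were Wnt4, Wnt10, wntD, Notum and Drl-2, none of which reached 1 RPM in any library. With deltaSAM 12 of the 37 rose, 7 fell and 18 were not called, with a median log2 change of -0.04. That is 32.4% up and 18.9% down, beside 17.3% and 18.9% of all genes tested. Of the 26 with a mean of at least 10 RPM, 12 rose and 6 fell, or 46.2% and 23.1%, beside 32.4% and 23.5% of all such genes. The split followed the scaling, with 5 up and 9 down of 39 at the gene-table total and 15 up and 5 down of 37 centred on the median gene. With KEE 20 of the 37 rose, 2 fell and 15 were not called, with a median of 0.51. That is 54.1% up and 5.41% down, beside 33% and 11.7% of all genes tested. Of the 26, 19 rose and 2 fell, or 73.1% and 7.69%, beside 53.6% and 18.7% of all such genes. At the gene-table total 14 rose and 2 fell of 39, and with DESeq2 14 rose and 4 fell of 37. Beside these, 1694 rose and 1386 fell of all 9249 genes at the gene-table total. With DESeq2 1532 rose and 1673 fell of 8246.

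By role, 8 genes were listed as destruction complex and kinases, which mixes parts of the complex with genes that act on it or elsewhere in the pathway. With deltaSAM this role had 2 rises (dco, Rnf146) and 4 falls (Apc, Apc2, CkIalpha, Tnks). With KEE it had 6 rises (Apc, CkIalpha, gish, dco, slmb, Rnf146) and 0 falls. Nuclear partners had 3 rises and 0 falls among 8 with deltaSAM, and 6 and 0 with KEE. Genes of ligand secretion and spreading had 4 rises and 0 falls among 6 with deltaSAM, and 3 and 1 with KEE. Of 4 ligand genes tested Wnt2 fell with deltaSAM and Wnt5 rose with KEE. In planar polarity 1 of 4 rose and 2 fell with deltaSAM, and 2 rose with KEE. These counts are of few genes and are to be read against the same shares of all genes, 17.3% up and 18.9% down with deltaSAM and 33% up and 11.7% down with KEE (32.4%, 23.5%, 53.6% and 18.7% at a mean of at least 10 RPM).

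Among 6 other receptor and receptor chaperone genes, 2 rose with deltaSAM (fz4 and dnt), and with KEE dnt rose and fz4 fell. These genes and nkd were named after their values were seen. The Frizzled family gene fz4 had 77.3 ± 9.93 RPM with deltaSAM and 56.8 ± 5.64 RPM with WT (0.43 ± 0.11, adjusted p = 0.00356, limma), a call lost at the gene-table total (0.23, adjusted p = 0.118). It had 86.3 ± 3.18 RPM with KEE and 105.7 ± 3.78 RPM with WT, a log2 change of -0.29 ± 0.11 (adjusted p = 0.0393, limma), where fz and fz2 rose. That call was lost with the replicate block (adjusted p = 0.0514), with no filter (0.0580), without KEE replicate 1, 2 or 3 (0.118, 0.0599 and 0.0974) and without WT replicate 1 or 2 (0.0899 and 0.110). In the 4 scalings other than library RPM the fall was called, with changes between -0.72 (DESeq2, adjusted p = 2.59e-09) and -0.62 (gene-table total, limma, adjusted p = 6.69e-05). The receptor tyrosine kinase family gene dnt rose by 0.74 ± 0.19 with deltaSAM and 1.10 ± 0.19 with KEE (adjusted p = 0.00266 and 1.45e-05, limma). The feedback inhibitor gene nkd had 4.08 ± 1.19 RPM with KEE and 1.05 ± 0.398 RPM with WT (1.30 ± 0.40, adjusted p = 0.00896, limma), on 10 to 19 reads with KEE and 2 to 4 with WT. Its call was lost at the gene-table total, with median centring and with DESeq2 (adjusted p = 0.0620, 0.0611 and 0.0636). With deltaSAM nkd was not called (-0.25, adjusted p = 0.667).

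The clearest changes of this list with deltaSAM by p were at stan, CtBP, dlp, pk, por and Wnt2. The atypical cadherin gene stan had 90.5 ± 17.0 RPM with deltaSAM and 237 ± 5.19 RPM with WT (SD, n = 3), a log2 change of -1.40 ± 0.10. The planar polarity gene pk had 38.9 ± 5.58 RPM with deltaSAM and 69.3 ± 8.58 RPM with WT (-0.82 ± 0.13). The ligand gene Wnt2 had 3.92 ± 0.417 RPM with deltaSAM and 12.1 ± 1.33 RPM with WT (-1.42 ± 0.26). The rises were smaller. The corepressor gene CtBP had 751 ± 100.1 RPM with deltaSAM and 497 ± 27.2 RPM with WT (0.59 ± 0.09). The glypican gene dlp had 109 ± 9.15 RPM with deltaSAM and 70.5 ± 2.18 RPM with WT (0.62 ± 0.10). The gene por, whose product adds a lipid to Wnt proteins, had 136 ± 1.54 RPM with deltaSAM and 86.5 ± 9.83 RPM with WT (0.65 ± 0.12). The adjusted p of the 6 lay between 1.56e-11 and 9.75e-05 (limma).

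With KEE the clearest were dco, dlp, nej, gro, CkIalpha and CtBP, all rises. The casein kinase genes dco and CkIalpha act on Armadillo or its partners. The dco gene had 633 ± 23.0 RPM with KEE and 141 ± 13.4 RPM with WT (2.16 ± 0.09), and CkIalpha had 97.5 ± 4.68 RPM with KEE and 16.0 ± 1.39 RPM with WT (2.54 ± 0.17). For dlp the values were 409 ± 21.2 RPM with KEE and 108 ± 3.31 RPM with WT (1.91 ± 0.10). The acetyltransferase gene nej had 712 ± 23.7 RPM with KEE and 224 ± 8.10 RPM with WT (1.67 ± 0.09), and the corepressor gene gro had 279.6 ± 9.56 RPM with KEE and 72.4 ± 11.8 RPM with WT (1.95 ± 0.12). For CtBP they were 1927 ± 9.31 RPM with KEE and 940.3 ± 87.4 RPM with WT (1.04 ± 0.09). The adjusted p of the 6 lay between 1.79e-17 and 3.13e-11 (limma).

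**Figure D5:**
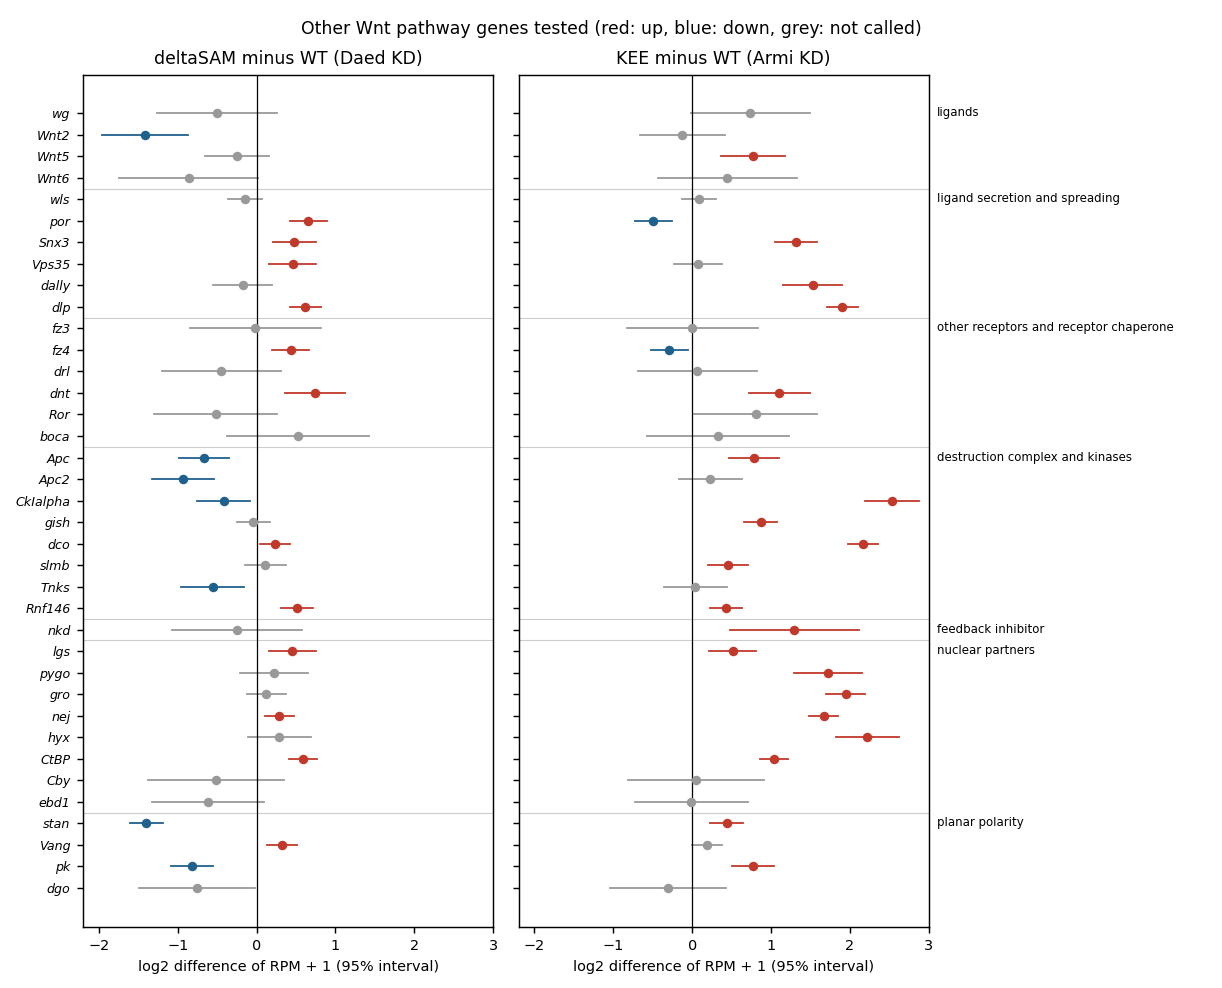
Log2 differences of RPM + 1 with 95% intervals for the 37 other Wnt pathway genes tested, grouped by role, with deltaSAM (left) and KEE (right). Red genes rose, blue genes fell and grey genes were not called, with 12, 7 and 18 on the left and 20, 2 and 15 on the right.

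Reads of overlapping genes could be mixed with those of a member, since the counting is not stated to use strand. RefSeq lists no gene that overlaps dsh or pan. In fz, fz2, arr, Axn and sgg the overlapping genes had at most 3.13 RPM in any library. An end of arm shares 82 bases with mRpL16, a mitochondrial ribosomal protein gene, which had up to 14.9 RPM and a mean of 9.31 RPM. The members' spans run from 2844 bases (dsh) to 94399 bases (fz2) with introns. Transcript lengths were not used here, so levels are not ranked between genes.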

How the data were processed

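The deposited gene table holds RPM, which the authors had normalised to each library's size, with 1 column per library, per the file headers. The submitters' processing notes name STAR and HTSeq as tools and BDGP6 and dm6 as builds; versions are not given in the sources used here. Every RPM value (100.0%) came back to whole reads within 0.01 of a read. Of 17469 gene identifiers 17341 (99.3%) had a symbol. Coordinates came from RefSeq on Release 6 (dm6). A transposon table was not used.

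The members and lists were chosen with earlier results of these data known. All 12 libraries entered 1 limma-trend fit on log2(RPM + 1) with group as the only term. The filter asked for 1 RPM or more in 3 or more libraries, and p values were Benjamini-Hochberg adjusted over all 8246. Named from the wider list were the 6 genes with the smallest p among those called in each experiment, and for each member the 2 genes of nearest pattern. The fit was tested on simulated reads with changes planted in the KEE libraries only. The simulation used the same fixed dispersion for all genes and no library that stood apart. It therefore does not cover these features of the real libraries. On the recovered reads edgeR called 2560 genes with deltaSAM and 3887 with KEE.

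The alternatives were a pseudocount of 0.1 or of 10, dropping the filter or raising it to 10 RPM, a replicate block, only the libraries compared, gene-table totals, median centring, edgeR with TMM factors, DESeq2, each library left out, and both libraries that stood apart left out together. The 4 scalings other than library RPM were gene-table totals, median centring, edgeR and DESeq2. The tests used DESeq2 1.42.0, edgeR 4.0.16 and limma 3.58.1 in R 4.3.3. Tables and plots used pandas 2.3.3, matplotlib 3.10.9 and numpy 2.4.6 in Python 3.11.15. Intervals on 3 libraries a group cover the spread between these samples.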

Additional observations from a re-analysis of the deposited data

Results flagged for a closer look

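The KEE effect differed from the deltaSAM effect in a test of the difference itself for 4 of the 8 genes, beside 40.4% of all genes tested and 66.5% of those with a mean of at least 10 RPM. It was higher by 2.12 on the log2 scale for fz2, by 2.19 for sgg and by 1.30 for arm, and the difference was -0.76 for pan (limma, adjusted p = 1.36e-11, 8.91e-09, 1.20e-07 and 0.000333). For sgg and arm the effects had opposite signs, with 3 of 3 deltaSAM libraries below and 3 of 3 KEE libraries above all of their WT libraries. The variant, the depleted gene and the experiment cannot be told apart in this difference.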

How the results depend on the processing

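Over 22 or 23 alternatives for each gene and comparison, 681 of 728 values for the 8 genes kept their direction and side of the threshold. Many of these alternatives could not move the log2 change, only its p. They were a library left out from outside the comparison, another filter, the replicate block and only the libraries compared. The count is therefore no measure of how firm the directions are. Counts of called members stayed within 1.5 times the reported ones, at 5 to 7 with deltaSAM, 6 to 7 with KEE, 4 to 5 for the difference and 4 to 6 between WT rescues. Signs turned for 18 values, of which none was called as reported or under the alternative. For Axn with deltaSAM the log2 difference was -0.055 at the gene-table total and -0.033 to 0.28 over libraries left out in turn. For the difference between effects, median centring gave -0.12 for Axn, -0.41 for arr, -0.31 for dsh and -0.35 for fz. DESeq2 gave -0.026 for Axn, -0.35 for arr, -0.25 for dsh and -0.30 for fz, and edgeR -0.29 for arr, -0.19 for dsh and -0.24 for fz. For dsh between WT rescues centring gave 0.048, and leaving out each library in turn gave -0.11 to 0.056. The alternatives were run on fz4, dnt and nkd after seeing the data. For nkd with deltaSAM, not called in any, leaving out each library in turn gave -0.59 to 0.16, and leaving out both libraries that stood apart gave 0.042. The cause was not tested.

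Same-numbered replicates did not deviate together, with correlations over 3842 genes of 0.00 to 0.03 in the Daed knockdown, -0.02 to 0.10 in the Armi knockdown and -0.02 to 0.11 between WT rescues. A replicate block changed no call among the 8 genes, where 7 were called with deltaSAM and 7 with KEE. All genes called were 3000 with deltaSAM and 3682 with KEE under the block. Depth limits sgg with deltaSAM most, at 20 to 28 reads a library.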
